A study of Mus musculus with 7 samples.

Results

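The 32 genes described here make up the unfolded protein response of the endoplasmic reticulum and the amino acid response that shares its ATF4 branch. They were taken by name and not by a cut on measured values, although earlier results of these data were known. Of them, 11 were chaperones and cochaperones and 7 were genes of degradation at the endoplasmic reticulum. A further 4 were stress sensors and their transcription factors, and 10 were genes of the ATF4 arm. All 32 were measured, among 18938 genes in all, each by 1 probe set that names no other gene. Their mean levels were high enough for all 32 to stay among the 11363 genes left when those under the 40th percentile of the mean were removed.

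Gene expression had been measured in prostates of Nkx3.1-/- mice of a recombinant inbred B6/129 strain. The mice received 5 mM N-acetylcysteine (NAC), an antioxidant and a source of cysteine for glutathione, or plain water as vehicle for 13 weeks after weaning, and were 16 weeks old at collection. Both groups lacked Nkx3.1, a homeobox factor of the prostate epithelium, so no wild-type prostate enters these values. Biotin-labelled cDNA of 4 NAC mice (replicates 1 to 4) and 3 vehicle mice (replicates 1, 2 and 4) was read on Mouse Gene 1.0 ST arrays of Affymetrix, 1 array per mouse. An additional vehicle array had not passed the authors' quality control and is not used here. The tissue label of the samples reads whole prostate, whereas the extraction protocol names the anterior prostate. Littermates had been divided between NAC and vehicle cages, so cage and treatment cannot be told apart. All levels below are deposited log2 values, in which 1 unit is a doubling of signal, and levels of different genes are not compared because each depends on its own probes.

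In a secretory epithelium such as that of the prostate, proteins bound for export are folded in the endoplasmic reticulum by chaperones and lectins, and those that fail to fold are drawn back to the cytosol and degraded. Unfolded proteins activate the sensors ATF6, IRE1 (Ern1) and PERK (Eif2ak3), of which ATF6 and the IRE1 product XBP1 induce chaperone and degradation genes. PERK phosphorylates the initiation factor eIF2alpha, which favours translation of ATF4, and the kinase GCN2 does the same when amino acids are scarce. Cleavage of ATF6, splicing of Xbp1 and phosphorylation of eIF2alpha were not measured on these arrays, which give transcript levels only.

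The promoters of these genes were searched for the elements through which the branches are known to act. RefSeq promoter windows of mouse build GRCm38.p6, each 250 bases before to 50 after a gene's start, were found for 28 of the 32 genes, and Atf6, Derl1, Hyou1 and Manf are named only. The following elements were searched on both strands, with N for any base. They were the endoplasmic reticulum stress element ERSE (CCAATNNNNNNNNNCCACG), its short form ERSE-II (ATTGGNCCACG), the unfolded protein response element UPRE (TGACGTGG), and CARE (TGATGNAA), the composite site of ATF4 with C/EBP proteins. ERSE was found in 37 of 27025 genes with a window (0.137%), ERSE-II in 12 (0.0444%), UPRE in 193 (0.714%) and CARE in 1219 (4.51%). Of 9 chaperone genes with a window, 6 held ERSE (66.7%), and of 6 degradation genes, 2 did (33.3%), against 0 of 3 sensor genes and 0 of 10 ATF4 arm genes. Of the 28 genes, 13 held at least 1 match of any element. The 15 matches in windows of these genes did not overlap each other, and UPRE was in 0 of the windows. A match describes the letters of a window and is not a mapped binding site.

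**Figure D1:**
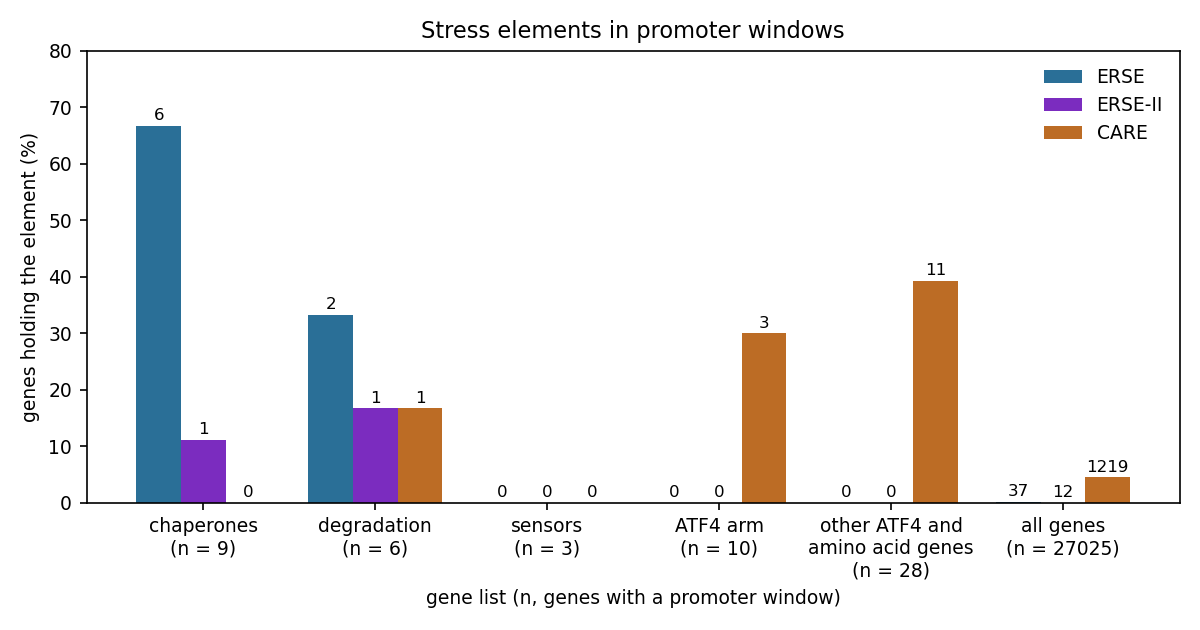
Share of genes, in percent of those with a RefSeq promoter window, that hold ERSE, ERSE-II or CARE, for each gene list and for all genes, with the number of genes above each bar. ERSE stands at 66.7% of chaperone and 33.3% of degradation genes, and CARE at 30% of the ATF4 arm and 39.3% of other ATF4 and amino acid genes, against 0.137% and 4.51% of all genes. The lists were chosen as known parts of these responses, so the shares are a description.

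The ERSE matches are shown because 8 of the 15 chaperone and degradation genes with a window held at least 1. These genes were listed as parts of a response known to act through this element. Their high share is therefore a description and not independent evidence. They are written 5′ to 3′ on the strand of the element, with its fixed bases in capitals and the spacer of 9 bases in lower case. Hsp90b1 held 2 of them.
Calr: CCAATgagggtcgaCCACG
Canx: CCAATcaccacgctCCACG
Creld2: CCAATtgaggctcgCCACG
Derl3: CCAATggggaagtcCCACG
Dnajc3: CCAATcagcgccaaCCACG
Hsp90b1: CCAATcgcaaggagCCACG
Hsp90b1: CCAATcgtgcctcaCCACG
Hspa5: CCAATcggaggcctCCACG
Syvn1: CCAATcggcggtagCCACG
The matches lay between 25 bases (Syvn1) and 193 bases (Hsp90b1) before the gene's start, and the spacer differed in each. The ERSE-II and CARE matches follow, the CARE core in capitals around its free base.
Dnajb11: ATTGGcCCACG
Herpud1: ATTGGgCCACG
Asns: TGATGaAA
Chac1: TGATGcAA
Herpud1: TGATGcAA
Trib3: TGATGtAA
Herpud1 was the one gene with both kinds of element, ERSE-II 41 bases and CARE 104 bases before its start. In the ATF4 arm, CARE was found for Asns, Chac1 and Trib3, 3 of 10 genes (30%), and in 11 of 28 other ATF4 and amino acid response genes with a window (39.3%). These lists too were made of genes of a response known to act through its element. Their CARE shares are therefore likewise a description and not independent evidence.

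For some genes with a match, the 250 bases before the start are shown whole, on the strand of the gene, with the fixed bases of the elements in capitals. Shown are Hspa5, which encodes BiP, and genes that varied most between arrays among chaperones (Creld2), degradation genes (Syvn1, Herpud1) and the ATF4 arm (Chac1). The sensor windows held no match and are not shown. Only 13 of the 28 genes with a window held a match, so these windows do not stand for all. The windows shown lie on the plus strand at chr2:34771840-34772089 (Hspa5), chr15:88819396-88819645 (Creld2), chr19:6046326-6046575 (Syvn1), chr8:94386179-94386428 (Herpud1) and chr2:119350992-119351241 (Chac1).
Hspa5: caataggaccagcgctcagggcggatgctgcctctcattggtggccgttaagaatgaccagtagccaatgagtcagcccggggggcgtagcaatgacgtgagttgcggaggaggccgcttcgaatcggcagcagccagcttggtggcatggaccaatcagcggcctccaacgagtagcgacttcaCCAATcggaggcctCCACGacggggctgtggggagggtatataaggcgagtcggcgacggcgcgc
Creld2: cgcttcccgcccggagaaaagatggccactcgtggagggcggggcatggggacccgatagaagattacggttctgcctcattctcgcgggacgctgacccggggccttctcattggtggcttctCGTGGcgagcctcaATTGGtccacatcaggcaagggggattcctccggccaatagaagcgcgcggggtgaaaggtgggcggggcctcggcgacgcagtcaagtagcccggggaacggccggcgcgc
Syvn1: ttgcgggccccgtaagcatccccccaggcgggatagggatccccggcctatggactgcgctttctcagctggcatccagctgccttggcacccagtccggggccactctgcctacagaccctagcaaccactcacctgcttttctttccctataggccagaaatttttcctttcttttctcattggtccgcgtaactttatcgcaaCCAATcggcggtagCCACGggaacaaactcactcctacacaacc
Herpud1: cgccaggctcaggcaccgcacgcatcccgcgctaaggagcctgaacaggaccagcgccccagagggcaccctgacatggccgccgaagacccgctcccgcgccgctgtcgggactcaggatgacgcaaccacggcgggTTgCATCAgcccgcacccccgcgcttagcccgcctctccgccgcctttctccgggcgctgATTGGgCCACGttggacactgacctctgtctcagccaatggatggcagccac
Chac1: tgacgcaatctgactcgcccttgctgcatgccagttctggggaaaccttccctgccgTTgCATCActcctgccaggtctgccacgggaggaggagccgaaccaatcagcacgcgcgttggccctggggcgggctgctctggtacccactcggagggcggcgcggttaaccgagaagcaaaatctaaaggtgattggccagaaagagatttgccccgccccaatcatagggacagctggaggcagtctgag
Hspa5 and Syvn1 carry ERSE in the direction of transcription and Creld2 carries it reversed. The capitals TT and CATCA in Herpud1 and Chac1 mark CARE on the opposite strand.

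NAC and vehicle arrays were then compared with limma, with p-values adjusted by Benjamini-Hochberg over all 18938 genes. No gene of the 32 had an adjusted p under 0.05, where 0 of all genes (0%) had one, and the adjusted p of the 32 lay between 0.827 and 0.996. At an unadjusted p under 0.05 there was 1 of the 32, the serine synthesis gene Phgdh, where 836 of all genes (4.41%) passed. Groups that did not overlap were found for 0 of the 32 in the higher direction (1.29% of all genes) and for 1 in the lower direction (2.18% of all genes), again Phgdh. These shares are near those of all genes. The log2 fold changes, NAC minus vehicle, ran from -0.10 (Phgdh) to 0.32 (Syvn1), with 20 above and 12 below 0 and a median of 0.02, against -0.00 over all genes. A missed threshold with 4 and 3 mice does not show equal levels, and the 95% intervals below give the differences these arrays leave possible.

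**Figure D2:**
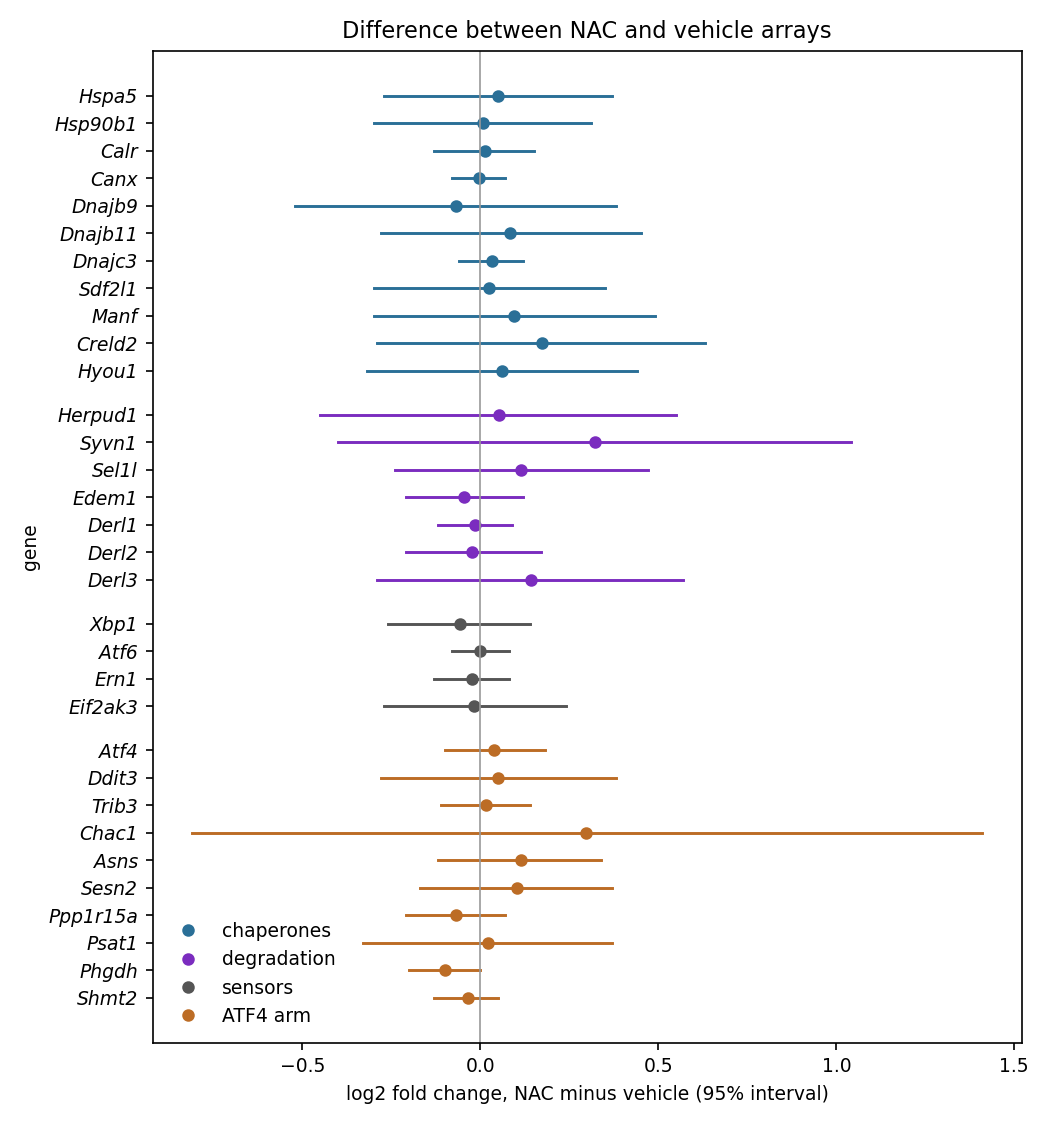
Log2 fold change of each gene, NAC minus vehicle, as a point with its 95% interval from the moderated fit (4 NAC and 3 vehicle arrays), grouped by role. The interval covers 0 for every gene but Phgdh, whose upper bound is -0.00, and is widest for Chac1 (-0.81 to 1.41) and Syvn1 (-0.40 to 1.04).

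The chaperone and degradation genes were spread mainly among the NAC arrays. Hspa5, which encodes the chaperone and sensor regulator BiP, was at 13.22, 13.58, 13.53 and 13.10 in NAC replicates 1 to 4, against 13.39, 13.15 and 13.38 in vehicle replicates 1, 2 and 4. NAC replicate 2 was the highest array and NAC replicate 4 the lowest, so the vehicle values lay within the NAC range. The log2 fold change was 0.05 (standard error 0.133, 95% interval -0.27 to 0.37, limma adjusted p = 0.942).

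Creld2, a stress-induced protein of the endoplasmic reticulum, showed the same order with a wider span. It was at 12.47, 13.00, 12.78 and 12.14 in the NAC replicates, against 12.47, 12.33 and 12.47 in the vehicle replicates. The NAC arrays covered 0.86 log2 units and the vehicle arrays 0.15, and the groups overlapped. Its log2 fold change of 0.17 (standard error 0.193, 95% interval -0.29 to 0.63, limma adjusted p = 0.859) was 0.33 without NAC replicate 4 and 0.04 without NAC replicate 2. Dnajb11, a cochaperone of BiP, was at 10.11, 10.49, 10.30 and 9.83 with NAC and at 10.17, 9.95 and 10.18 with vehicle, again highest in NAC replicate 2 and lowest in NAC replicate 4 (log2 fold change 0.08, 95% interval -0.28 to 0.45). Manf, a small resident protein that is also secreted, was at 11.29, 11.49, 11.55 and 11.03 with NAC and at 11.46, 10.93 and 11.35 with vehicle (log2 fold change 0.10, 95% interval -0.30 to 0.49). Here vehicle replicate 2 was the lowest array and NAC replicate 3 the highest.

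The other chaperones differed in how much they varied. Canx and Calr, the lectin chaperones of glycoproteins, covered 0.08 and 0.25 log2 units over the 7 arrays, and Dnajc3, a cochaperone of BiP, covered 0.14. The span of Calr was that of the median gene (0.25), with NAC replicate 2 highest (13.32) and NAC replicate 4 lowest (13.06). Dnajc3 was at 12.36, 12.47, 12.36 and 12.37 with NAC and at 12.32, 12.37 and 12.38 with vehicle (log2 fold change 0.03, 95% interval -0.06 to 0.12), with NAC replicate 2 alone above the rest. Dnajb9, a cochaperone that restrains IRE1, spanned 0.83, Hyou1, a nucleotide exchange factor of BiP, 0.67, Hsp90b1, the endoplasmic reticulum form of HSP90, 0.61, and Sdf2l1, a partner of BiP cochaperones, 0.49. For these 4 genes NAC replicate 4 was the lowest array, and the highest was NAC replicate 2 or, for Dnajb9, NAC replicate 3. Their log2 fold changes lay between -0.07 (Dnajb9) and 0.06 (Hyou1). ERSE was found in the windows of Canx and Dnajc3, which varied little, and of Calr, as well as of Hspa5, Hsp90b1 and Creld2, which varied more.

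**Figure D3:**
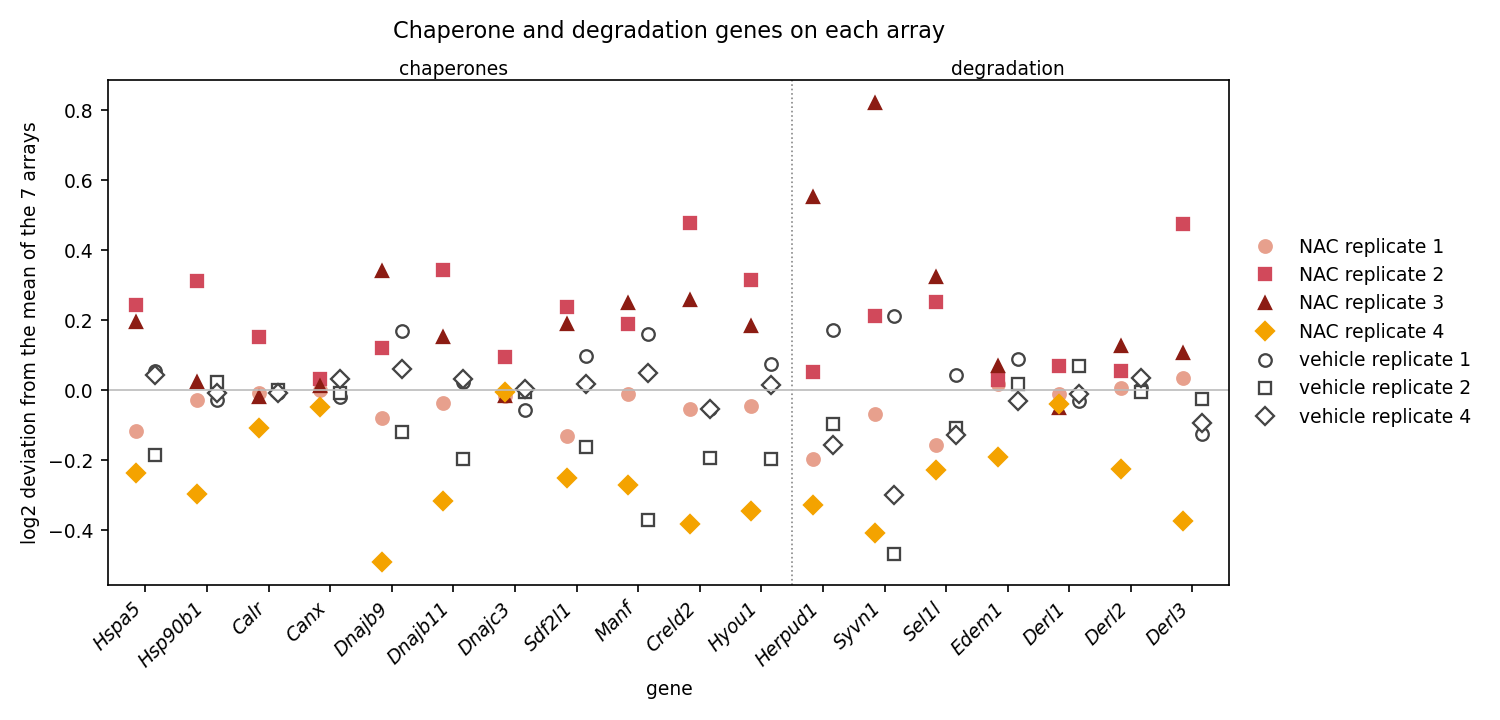
Log2 deviation of each chaperone and degradation gene from its mean over the 7 arrays, with 1 marker per array, filled for NAC and open for vehicle. NAC replicate 4 is the lowest array for 14 of the 18 genes, and NAC replicate 2 or 3 is the highest for 16, while Canx, Dnajc3 and Derl1 stay close together.

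Among the degradation genes, Syvn1, the ubiquitin ligase HRD1 at the core of the pathway, varied most. It was at 10.64, 10.92, 11.53 and 10.30 in the NAC replicates, against 10.92, 10.24 and 10.41 in the vehicle replicates. NAC replicate 3 stood above all other arrays, and vehicle replicate 2 and NAC replicate 4 were low, so the groups overlapped. The log2 fold change was 0.32 (standard error 0.303, 95% interval -0.40 to 1.04, limma adjusted p = 0.844) and was 0.09 without NAC replicate 3. Sel1l, the adaptor that stabilises HRD1, was at 11.49, 11.90, 11.97 and 11.42 with NAC and at 11.69, 11.54 and 11.52 with vehicle (log2 fold change 0.12, 95% interval -0.24 to 0.47). Derl3, of the derlins that help substrates cross the membrane, was at 11.77, 12.21, 11.84 and 11.36 with NAC and at 11.61, 11.71 and 11.64 with vehicle (log2 fold change 0.14, 95% interval -0.29 to 0.57). The 3 vehicle values of Derl3 lay within 0.09 log2 units of each other, between the lowest and the other NAC values.

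Edem1, a lectin that hands misfolded glycoproteins to degradation, was at 12.10, 12.11, 12.15 and 11.89 with NAC and at 12.17, 12.10 and 12.05 with vehicle (log2 fold change -0.05, 95% interval -0.21 to 0.12). Only NAC replicate 4 lay apart, below all others. Herpud1, a scaffold of the HRD1 complex and the gene with both ERSE-II and CARE, was highest in NAC replicate 3 at 13.05 and lowest in NAC replicate 4 at 12.17, and spanned 0.88 log2 units. Its difference between the groups was 0.05 (95% interval -0.45 to 0.55). Derl2 spanned 0.34 and was lowest in NAC replicate 4. Derl1 spanned 0.12, and its lowest array was NAC replicate 3.

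Counted over the 18 chaperone and degradation genes, NAC replicate 4 was the lowest array for 14 (77.8%), where it was the lowest for 17.3% of all genes. NAC replicate 2 was the highest for 10 (55.6%, against 13.1% of all genes) and NAC replicate 3 for 6 (33.3%, against 14.8%). For 13 genes (72.2%) the highest and the lowest array were both NAC arrays, where this held for 30.6% of all genes. The SD was larger among NAC than among vehicle arrays for 17 of 18 genes, where it was larger for 60.9% of all genes. The count was 15 of 18 without NAC replicate 2, 16 of 18 without NAC replicate 3 and 15 of 18 without NAC replicate 4, where 55.6%, 57.0% and 54.7% of all genes had the larger SD with NAC. These genes share inducers, so their counts are not independent observations, and the 7 mice remain the unit of replication. Over all genes, NAC replicate 4 had the lowest upper quartile of the arrays, 8.78, against 8.80 to 8.86 on the others. The 18 genes lay above these quartiles on every array, at 9.60 or higher. The percentages of all genes are therefore not those of genes of like level, and the latter were not tested.

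As means over the genes, the 11 chaperones deviated from their own 7-array means by -0.05, 0.23, 0.14 and -0.25 log2 units in NAC replicates 1 to 4, against 0.04, -0.13 and 0.02 in the vehicle replicates. The 7 degradation genes deviated by -0.05, 0.16, 0.28 and -0.25 with NAC, against 0.05, -0.09 and -0.10 with vehicle. Both arms thus had NAC replicates 2 and 3 above and NAC replicate 4 below every vehicle array. The median log2 fold change was 0.03 for the chaperones (9 of 11 above 0) and 0.05 for the degradation genes (4 of 7 above 0), beside -0.00 for all genes. The chaperone median was -0.02 without NAC replicate 2 and -0.01 without vehicle replicate 2, and the degradation median was -0.00 without NAC replicate 3 and -0.01 without vehicle replicate 4, so neither arm kept a direction.

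**Figure D4:**
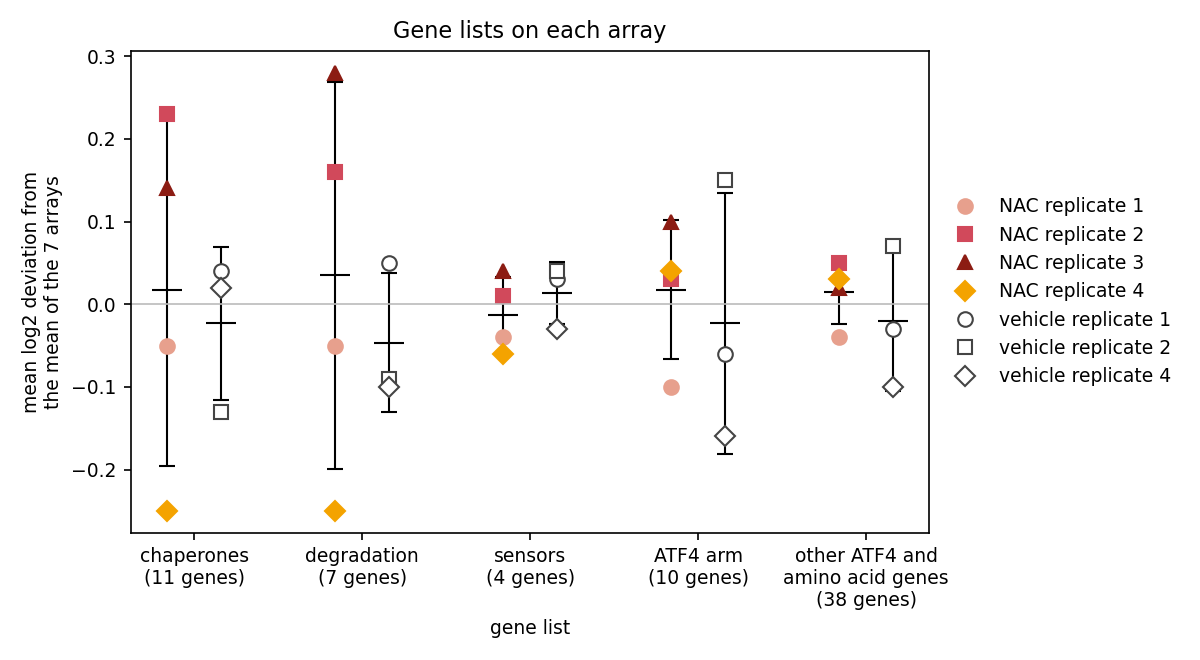
Mean log2 deviation of each gene list from the 7-array means of its genes, with 1 marker per array, the horizontal bar at the group mean and whiskers of 1 SD (NAC n = 4, vehicle n = 3). The NAC markers of the chaperones run from -0.25 to 0.23 around vehicle markers from -0.13 to 0.04, and in the ATF4 arm the vehicle markers, from -0.16 to 0.15, lie around the NAC markers, from -0.10 to 0.10.

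Transcripts of neighbouring and other tissues also differed between these arrays. On NAC replicate 3 the 4 lung genes of the marker list had a summed level of 11.42 (log2), against 8.02 to 8.06 on the other NAC arrays and 7.99 to 8.04 on vehicle arrays, and the adipocyte list reached 10.18, against 8.43 to 8.63 and 8.47 to 8.67. The seminal vesicle list summed to 12.92, 14.18, 13.71 and 14.91 on NAC replicates 1 to 4, against 14.32 to 14.65 on vehicle arrays. All 7 of its genes had a log2 fold change below 0, and for Svs3a, Svs4 and Svs6 every NAC value, that of replicate 4 included, lay below every vehicle value. The high sum on NAC replicate 4 came with Svs2 at 13.53 and Pate4 at 11.43, where the vehicle arrays had at most 11.57 and 9.17. The summed prostate epithelium list, with Tgm4 and Pbsn among its strong genes, lay between 15.38 and 15.46 on NAC arrays and between 15.42 and 15.53 on vehicle arrays. Its secretory gene Spink1 differed from the others, at 9.97 to 11.47 on NAC arrays and 11.43 to 12.36 on vehicle arrays. Plasma and B cell genes summed to 8.38 to 8.78 on NAC arrays and 8.49 to 8.69 on vehicle arrays. Among them the plasma cell gene Jchain was lower on every NAC array (5.45 to 5.93) than on any vehicle array (5.96 to 6.44), and Mzb1 had a log2 fold change of -0.15, while Cd79a, Cd79b, Ms4a1 and Pou2af1 had log2 fold changes between 0.16 and 0.21. Ms4a1 (3.99 to 4.69) and Cd79a (4.34 to 5.28) were near the low end of the arrays, whose 10th percentiles lay between 4.51 and 4.58. Their signal may therefore be mostly background. In bulk tissue, fewer cells of a type and less RNA per cell cannot be told apart, and the part of these transcripts in the levels of the 32 genes was not tested.

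Of the sensors and their factors, Atf6 and Ern1 varied little over the 7 arrays (ranges of 0.10 and 0.13 log2 units), while Xbp1 (0.31) and Eif2ak3 (0.46) varied more than the median gene (0.25). Xbp1, the factor spliced by IRE1, was at 11.68, 11.94, 11.72 and 11.77 with NAC and at 11.74, 11.99 and 11.77 with vehicle (log2 fold change -0.06, 95% interval -0.26 to 0.14). NAC replicate 2 and vehicle replicate 2 were the highest arrays, and NAC replicate 4, the lowest for most chaperones, was in the middle. Atf6, the membrane-bound factor released by cleavage, lay between 11.38 and 11.48 with NAC and between 11.41 and 11.45 with vehicle (log2 fold change -0.00, 95% interval -0.08 to 0.08). Its highest value was in NAC replicate 4 and its lowest in NAC replicate 2, the reverse of most chaperones.

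Ern1, the kinase and endonuclease IRE1, was at 11.42, 11.43, 11.50 and 11.48 with NAC and at 11.54, 11.50 and 11.41 with vehicle (log2 fold change -0.03, 95% interval -0.13 to 0.08). Eif2ak3, which encodes PERK, was at 9.48, 9.48, 9.69 and 9.23 with NAC and at 9.60, 9.41 and 9.45 with vehicle (log2 fold change -0.02, 95% interval -0.27 to 0.24). Eif2ak3 was the one sensor gene with NAC replicate 3 highest and NAC replicate 4 lowest. All 4 fold changes were below 0, with a median of -0.02, but those of Atf6, Ern1 and Eif2ak3 were above 0 after a further quantile normalization, and every interval covered 0. For Atf6 and Ern1 the interval left out changes of more than 0.13 log2 units in either direction.

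In the ATF4 arm the arrays ordered differently. Atf4, the factor of the integrated stress response, was at 9.13, 9.21, 9.33 and 9.18 with NAC and at 9.23, 9.19 and 9.09 with vehicle (log2 fold change 0.04, 95% interval -0.10 to 0.18). Ddit3, its target CHOP that favours apoptosis, was at 7.93, 8.11, 8.52 and 8.07 with NAC and at 8.24, 8.05 and 8.03 with vehicle (log2 fold change 0.05, 95% interval -0.28 to 0.38). Both genes were highest in NAC replicate 3, and Ddit3 was lowest in NAC replicate 1, so its vehicle values lay within the NAC range.

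Chac1, an ATF4 target that breaks down glutathione, had the widest span of the 32 genes, 1.86 log2 units, and is given in full for that reason, after its values were seen. It was at 8.55, 8.95, 9.0 and 9.67 in the NAC replicates, against 8.41, 9.85 and 7.99 in the vehicle replicates. Vehicle arrays held both the highest and the lowest value. The log2 fold change of 0.30 (standard error 0.467, 95% interval -0.81 to 1.41, limma adjusted p = 0.895) was 0.85 without vehicle replicate 2 and -0.08 without vehicle replicate 4. Thus for the one member of the arm that acts on glutathione the spread among 3 vehicle mice exceeded the difference between the groups.

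**Figure D5:**
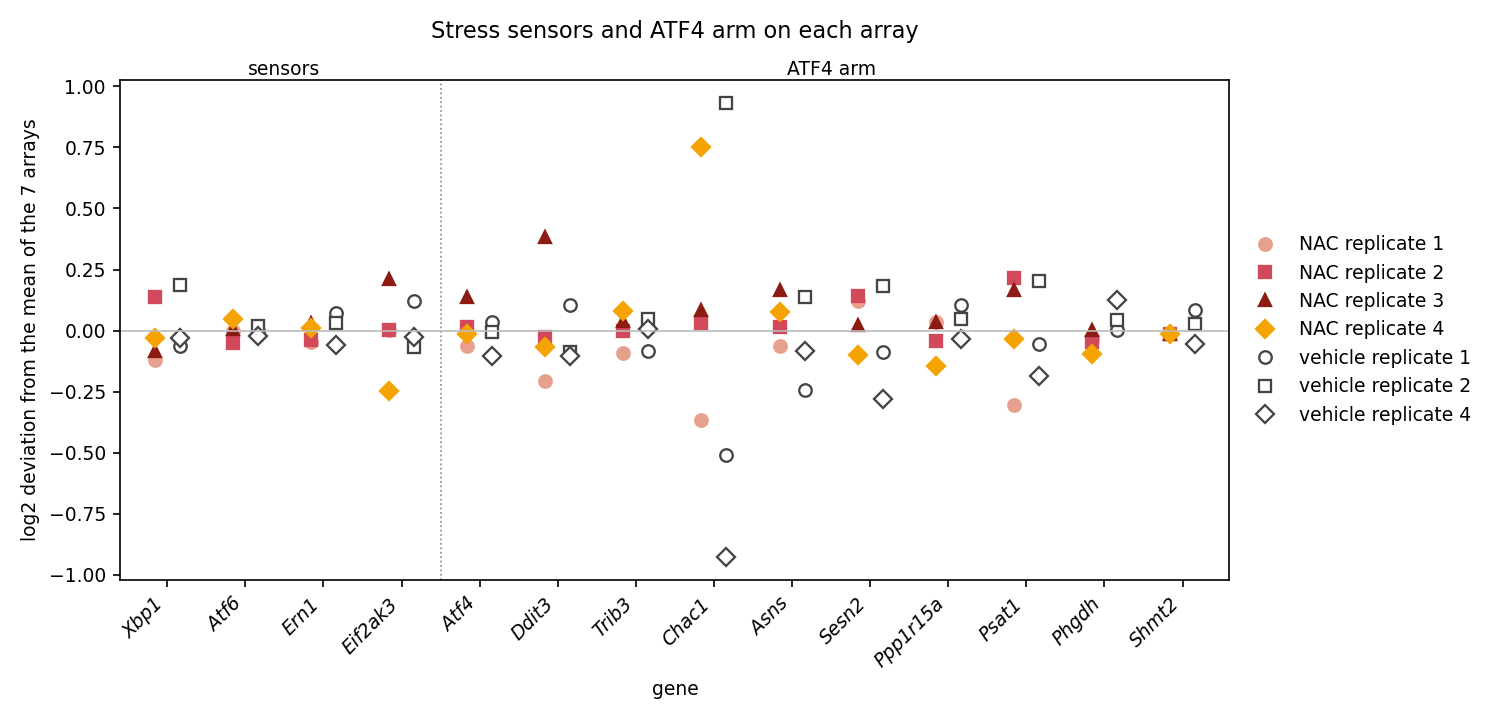
Log2 deviation of each sensor and ATF4 arm gene from its mean over the 7 arrays, with 1 marker per array, filled for NAC and open for vehicle. Chac1 spans 1.86 log2 units with vehicle replicate 2 at the top and vehicle replicate 4 at the bottom, and Phgdh is the gene whose NAC values all lie below its vehicle values.

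Of the enzymes that supply amino acids, Phgdh, which opens serine synthesis, was at 9.73, 9.72, 9.77 and 9.67 with NAC and at 9.77, 9.81 and 9.89 with vehicle. The groups did not overlap, although the highest NAC and the lowest vehicle value were both 9.77 to 2 decimals. The log2 fold change was -0.10 (standard error 0.041, 95% interval -0.20 to -0.00), with an unadjusted p of 0.0439 and a limma adjusted p of 0.827, and it lay between -0.13 and -0.07 with any 1 array left out. Psat1, which acts after Phgdh in the same path, spanned 8.66 to 9.18 with NAC and 8.78 to 9.17 with vehicle (log2 fold change 0.02, 95% interval -0.33 to 0.37). Shmt2, which turns serine into glycine in mitochondria, was listed at 8.32 on all 4 NAC arrays and at 8.42, 8.36 and 8.28 on the vehicle arrays (log2 fold change -0.04, 95% interval -0.13 to 0.05). The serine genes thus did not share an order of arrays. Values equal to 6 decimals on at least 3 arrays were found for 3 of the 32 genes (9.38%), against 7568 of all genes (39.96%).

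Asns, asparagine synthetase, was at 11.41, 11.49, 11.64 and 11.55 with NAC and at 11.23, 11.61 and 11.39 with vehicle (log2 fold change 0.11, 95% interval -0.12 to 0.34). NAC replicate 3 was the highest array and vehicle replicate 1 the lowest. Sesn2, a leucine sensor that restrains mTORC1, spanned 8.25 to 8.49 with NAC and 8.07 to 8.53 with vehicle (log2 fold change 0.10, 95% interval -0.17 to 0.37). Ppp1r15a, the GADD34 subunit that returns eIF2alpha to its unphosphorylated state, was at 8.30, 8.22, 8.30 and 8.12 with NAC and at 8.37, 8.31 and 8.23 with vehicle (log2 fold change -0.07, 95% interval -0.21 to 0.07). Trib3, a pseudokinase that restrains ATF4, spanned 6.89 to 7.06 with NAC and 6.90 to 7.03 with vehicle. Over the 10 genes, 7 fold changes were above 0, with a median of 0.03, and the median was -0.04 without vehicle replicate 4.

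Vehicle replicate 4 was the lowest array for 4 of the 10 ATF4 arm genes (Atf4, Chac1, Sesn2 and Shmt2), where it was the lowest for 13.5% of all genes. The same array stood out in a longer list of 38 other ATF4 and amino acid response genes, which hold aminoacyl-tRNA synthetases, amino acid transporters and further targets. Vehicle replicate 4 was the lowest array for 14 of them (36.8%), and vehicle replicate 2 the highest for 12 (31.6%, against 10.2% of all genes). NAC replicate 1 was also often the lowest array, for 3 of the 10 ATF4 arm genes and 10 of the 38 (26.3%), against 12.1% of all genes. Their mean deviations were -0.04, 0.05, 0.02 and 0.03 log2 units in the NAC replicates, against -0.03, 0.07 and -0.10 in the vehicle replicates. The vehicle arrays thus enclosed the NAC arrays. Of these genes, 25 of 38 were above 0 with NAC, with a median of 0.02.

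By the smallest unadjusted limma p, the genes of that list were Atf3, an early stress factor (log2 fold change -0.12), the tyrosyl-tRNA synthetase Yars (0.16), the ATF4-like factor Atf5 (0.09) and the mitochondrial folate enzyme Aldh1l2 (0.23), each with a limma adjusted p of 0.827. The unadjusted p was under 0.05 for Atf3, Yars and Atf5. Atf5 was at 7.66, 7.68, 7.73 and 7.76 with NAC, against 7.61, 7.64 and 7.60 with vehicle, and its groups did not overlap. Yars was at 10.42, 10.35, 10.35 and 10.47 with NAC and at 10.24, 10.35 and 10.13 with vehicle, and its groups met at 10.35.

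The remaining genes of the pathway were close to 0 as well. Of 39 other folding and translocation genes, such as disulfide isomerases, 11 were above and 28 below 0 (median -0.02), of 23 other degradation genes 10 and 13 (median -0.01), and of 20 other sensor and signalling genes 8 and 12 (median -0.02). Over all 120 genes of these lists, 3 were higher and 2 lower at an unadjusted p under 0.05, where 4.41% of all genes passed in either direction, and 0 had an adjusted p under 0.05. Groups that did not overlap were found for 2 higher genes, Atf5 and Creb3l1, and for 3 lower genes, Fkbp2, Faf2 and the translocon channel Sec61a1, the last named after its values were seen, where 1.29% of all genes were apart in the higher and 2.18% in the lower direction. Creb3l1, a membrane-bound factor related to ATF6, was at 6.50, 6.46, 6.43 and 6.63 with NAC, against 6.32, 6.43 and 6.29 with vehicle, and its groups came as close as 6.43 on both sides at 2 decimals (log2 fold change 0.16, limma adjusted p = 0.827). Eif2ak2, the double-stranded RNA kinase PKR that also acts on eIF2alpha, was at 7.85, 7.89, 7.72 and 7.53 with NAC, against 7.86, 8.09 and 8.05 with vehicle (log2 fold change -0.25, limma adjusted p = 0.827), and overlapped at NAC replicate 2. The phosphatase subunit Ppp1r15b (0.11) and the haem-regulated kinase Eif2ak1 (-0.08) followed.

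In the folding list the smallest unadjusted limma p belonged to the prolyl isomerase Fkbp2 (log2 fold change -0.10), the glucosidase Mogs (-0.08), Cnpy2 (-0.05) and the thiol protein Erp44 (-0.09). In the degradation list the smallest unadjusted limma p belonged to Faf2 (-0.09), Ufd1 (0.06) and Nploc4 (0.06), all partners of the segregase VCP, and to the lectin Os9 (-0.04), and all 8 genes had a limma adjusted p of 0.827. Fkbp2 was at 12.26, 12.24, 12.23 and 12.10 with NAC, against 12.32, 12.27 and 12.34 with vehicle, and Faf2 at 9.48, 9.48, 9.44 and 9.29, against 9.49, 9.55 and 9.50. For both genes every NAC value lay below every vehicle value, and NAC replicate 4 was the lowest array. NAC replicate 4 was the lowest array for 22 of the 39 folding genes (56.4%) and for 8 of the 23 degradation genes (34.8%), against 17.3% of all genes. Vehicle replicate 4 was the lowest for as many degradation genes, 8 (34.8%, against 13.5% of all genes). NAC replicate 2 was the highest for 7 folding genes (17.9%) and 10 degradation genes (43.5%), against 13.1%. Vehicle replicates 1 and 4 were each the highest for more folding genes, 10 (25.6%, against 18.3% and 10.7% of all genes). The longer lists thus did not repeat the whole order of the 18 genes. The part of the low upper quartile of NAC replicate 4 (8.78, against 8.80 to 8.86 on the other arrays) in these counts was not tested. The folding genes deviated on average by -0.11 log2 units in NAC replicate 4 and by 0.04 in NAC replicate 2, and both extremes were NAC arrays for 12 of 39 (30.8%), near the 30.6% of all genes.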

How the data were processed

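RNA of 4 NAC and 3 vehicle Nkx3.1-/- prostates was measured on Mouse Gene 1.0 ST arrays of Affymetrix, and each array was given its treatment and replicate number by its labels. The deposited log2 values were made by the authors in the Affy package with RMA background correction, normalization by quantiles and a median polish over probes. The submitters' processing notes also name limma, without versions. Of 20696 probe sets in the table, the platform annotation gives 1 gene name to 18950, several to 678 and none to 1068. Those with 1 name gave 18938 genes, each represented by its probe set of the highest mean, and 18922 probe sets were matched by Entrez identifier to the gene table of GRCm38.p6. The table has 0 value columns without a sample. Median levels of the arrays over genes lay between 7.16 and 7.20, and upper quartiles between 8.78 (NAC replicate 4) and 8.86 (vehicle replicate 1). Precision is limited by the number of arrays. Nothing in the sources says that a replicate number marks a shared litter.

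The groups were set against each other in R 4.3.3 with the moderated fit of limma 3.58.1, two-sided and without covariates, and Benjamini-Hochberg adjusted p-values under 0.05 over all genes counted as called. Intervals of 95% came from the moderated fit. An array was counted as highest or lowest for a gene only where no other array held the same value. The fit was checked on simulated data. Promoter windows were searched in Python 3.11.15. The 32 genes, the further pathway lists and the marker lists were chosen with earlier results of these data known, so lists are described by counts and medians without a p. Every gene of the 32 is named. In full are the 4 with the smallest unadjusted p of each role and Hspa5, Xbp1, Atf6, Atf4 and Ddit3, and of each further list the 4 genes with the smallest unadjusted p are named. As alternatives, each array was left out, arrays were weighted, array medians were subtracted, quantiles were normalized a further time, the fit used a trended, robust variance, genes below the 40th percentile were removed, probe sets of a gene were replaced by their median, and replicate numbers served as a block. The study's gene set enrichment analysis was not repeated.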

Additional observations from a re-analysis of the deposited data

Results flagged for a closer look

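Of 48 genes examined in the 4 NAC arrays, 2 had 1 array far from the others, where chance gives about 1 in 20 such groups, and the 3 vehicle arrays were too few for this check. Dnajc3 was at 12.47 in NAC replicate 2, while the other NAC arrays lay between 12.36 and 12.37. Fkbp2 was at 12.10 in NAC replicate 4, while the other NAC arrays lay between 12.23 and 12.26.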

How the results depend on the processing

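Under every alternative run, none of the 32 genes passed (0 calls at an adjusted p under 0.05), and their lowest limma adjusted p was 0.667. Of their 448 log2 fold changes under other settings, 50 had the opposite sign, which 9 genes never showed. Among all genes, the 0 called became 1 without NAC replicate 4 (Crip1, adjusted p = 0.033), a range of 0 to 1 with 1 array left out. Genes at an unadjusted p under 0.05 numbered 554 without those under the 40th percentile and 597 to 1257 with 1 array left out, most without NAC replicate 2. Genes whose groups did not overlap numbered 506 higher and 655 lower after quantile normalization again, 655 lower after subtraction of array medians, 117 higher without genes under the 40th percentile, and 357 to 919 higher and 569 to 1378 lower with 1 array left out. Phgdh, the 1 of the 32 at an unadjusted p under 0.05, was not past it with array medians subtracted, quantile normalization again or the block, which left 0 genes, and the number was 0 to 2 with 1 array left out (0 without NAC replicate 1, 2 or 4 or vehicle replicate 4, and 2 without vehicle replicate 2). Of the 32, non-overlapping groups were found for 0 lower genes after quantile normalization again, and for 0 to 2 higher and 1 to 3 lower genes with 1 array left out (2 higher without vehicle replicate 2, 3 lower without vehicle replicate 4). The median of the other sensor and signalling genes was 0.006 after quantile normalization again and ran from -0.037 to 0.013 with 1 array left out (0.001 without NAC replicate 4, 0.013 without vehicle replicate 1).

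Whether replicate numbers pair the mice was not settled. Deviations of NAC and vehicle arrays with the same number correlated across genes with r = 0.212, 0.286 and -0.067 (replicates 1, 2 and 4). Arrays with different numbers correlated with r from -0.271 to 0.21. The value of replicate 2 lay above that range, that of replicate 1 was at its upper end (0.212 against 0.21), and that of replicate 4 lay within it. Deviations were taken from the group means, so these correlations are not independent of each other and cannot decide the pairing. With the number as a block, which uses replicates 1, 2 and 4 alone, 0 of all genes were called and 956 had an unadjusted p under 0.05, so the block changed no adjusted call. Under this block the log2 fold changes of Hspa5 (-0.007), Sdf2l1 (-0.035), Herpud1 (-0.126), Ddit3 (-0.072) and Psat1 (-0.032) turned sign. Those of Canx (0.039), Derl1 (0.003), Derl2 (0.005), Atf6 (0.026), Ern1 (0.003) and Eif2ak3 (0.002) did so after quantile normalization again, and those of Eif2ak3 (0.010), Trib3 (-0.003) and Psat1 (-0.002) with array weights. The cause was not tested.

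With 1 array left out, these genes turned sign, with the lowest and highest log2 fold change over the 7 omissions: Hspa5 -0.030 to 0.135, Hsp90b1 -0.096 to 0.107, Calr -0.037 to 0.048, Canx -0.014 to 0.012, Dnajb9 -0.191 to 0.086, Dnajb11 -0.017 to 0.202, Sdf2l1 -0.051 to 0.113, Manf -0.062 to 0.201, Hyou1 -0.037 to 0.186, Herpud1 -0.126 to 0.168, Edem1 -0.077 to 0.009, Derl1 -0.042 to 0.013, Derl2 -0.068 to 0.046, Xbp1 -0.112 to 0.019, Atf6 -0.017 to 0.016, Ern1 -0.062 to 0.005, Eif2ak3 -0.092 to 0.062, Atf4 -0.001 to 0.068, Ddit3 -0.072 to 0.127, Trib3 -0.022 to 0.049, Chac1 -0.084 to 0.846, Sesn2 -0.005 to 0.224, Psat1 -0.067 to 0.129. The signs turned without NAC replicate 2 for Hspa5, Hsp90b1, Calr, Dnajb11, Sdf2l1, Hyou1, Atf6 and Psat1, without NAC replicate 3 for Hspa5, Sdf2l1, Herpud1, Ddit3 and Psat1, without NAC replicate 4 for Canx, Dnajb9, Edem1, Derl2, Eif2ak3 and Trib3, without vehicle replicate 1 for Hsp90b1, Ern1, Eif2ak3 and Trib3, without vehicle replicate 2 for Hspa5, Sdf2l1, Manf, Hyou1, Derl1, Xbp1 and Atf6, and without vehicle replicate 4 for Canx, Herpud1, Atf4, Chac1, Sesn2 and Psat1. Summarized values do not show signal over background, so how dim probe sets limit these results was not tested.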
